A study of Mus musculus with 12 samples.

Results

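The genes described here belong to the interleukin-6 (IL-6) cytokine family of 2 mouse mammary carcinoma lines, 4T1 and EMT6. They are 4 cytokines (Il6, Il11, Lif and Clcf1), 4 receptor genes (Il6st, Osmr, Lifr and the leptin receptor Lepr), the transcription factor Stat3 and its feedback inhibitor Socs3. These 10 genes were selected by gene symbol among the 56691 genes of the deposited tables, from a list drawn up with knockout and control values of the same libraries known. Their differences between knockout and control are therefore given as a description, with no p-value of their own, and read as support for nothing. The lists of further pathway genes below were also chosen with earlier results of these data known. The p-values printed for those genes are thus a description too, not independent support.

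Each line was sequenced as control cells, headed WT in the tables, and as knockout cells (KO) in which Nedd4, a ubiquitin ligase, was targeted by a guide RNA (sgNEDD4). The groups are 4T1 control, 4T1 KO, EMT6 control and EMT6 KO, with 3 messenger RNA libraries each and 12 in all. The cells were grown in culture with fetal bovine serum, and none of the labels names a cytokine or drug treatment. All libraries carry 1 batch label. The labels do not say if a group's libraries are separate cultures, or if a KO line is 1 clone, so p-values measure the spread between these libraries only, which may be technical.

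Cytokines of this family signal through gp130, the receptor subunit that Il6st encodes. IL-6 and IL-11 first bind their own alpha receptors, while leukaemia inhibitory factor (Lif) pairs gp130 with the LIF receptor, and oncostatin M can pair it with the oncostatin M receptor (Osmr). The bound receptors activate JAK kinases, which phosphorylate STAT3, and STAT3 induces Socs3, whose protein blocks the receptor in return. The leptin receptor is built like gp130 and also signals through JAK2 and STAT3. In mammary tissue LIF and STAT3 are known for driving cell death and remodelling after weaning, and IL-6 family cytokines from tumour cells are known to act on the tumour cells themselves and on neighbouring stroma.

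Total counts per library ran from 13705612 to 19761604. A count of 3 therefore stood for 0.152 to 0.219 CPM (counts scaled to a library total of 1000000), and intervals from counts cover counting error only. Nedd4 lay at 93.5 to 97.6 FPKM (counts divided by gene length and library size) in the 4T1 controls and at 24.7 to 25.3 FPKM in the 4T1 KO libraries. In EMT6 it lay at 116.5 to 122.5 FPKM in controls and at 11.5 to 12.1 FPKM in KO. Of 6 mammary epithelial markers, 5 stood at a mean of at least 1 FPKM in both 4T1 groups, among them Epcam and Cdh1. In EMT6, 3 did so in controls and 2 in KO. Krt8 was there at means of 293 and 352 FPKM and Krt18 at 76.2 and 32.5 FPKM, in control and KO. Cdh1, the epithelial cadherin, was at a mean of 0.00667 FPKM in both EMT6 groups. The summed level of 6 leukocyte markers was at most 1.10 FPKM in any library, with Cd3e at 0. In EMT6 the sum was 0.40 to 0.58 FPKM in controls and 0.94 to 1.10 FPKM in KO. All of it was Csf1r, at means of 0.513 and 1.04 FPKM, as the other 5 markers had 0 counts there. More genes had a count in 4T1 KO libraries (20937 to 21264) than in 4T1 controls (18836 to 19017). The nuclear RNAs Malat1 and Neat1 differed likewise, at 69.3 to 155 CPM and 51.6 to 84.6 CPM in 4T1 controls against 478.6 to 560.2 CPM and 240.5 to 333.2 CPM in 4T1 KO. EMT6 control library 1 stood apart in Malat1, at 449.6 CPM against 188.7 and 212.8 CPM in the other controls. Summed epithelial markers were at 1839 to 1913 FPKM in 4T1 controls and 1317 to 1394 in 4T1 KO. Krt8 (control and KO means 655 and 399 FPKM), Krt18 (943 and 742) and Epcam (149 and 72) were lower there. Cdh1 was not (136 and 142), and Krt14 was not called (3.6 and 3.07). In EMT6, 4 summed fibroblast markers were at 158 to 179 FPKM in controls and 203 to 236 in KO. Most of that sum was Col1a1 (means 165 and 202 FPKM). Pdgfrb stood at 0.953 and 9.78, Pdgfra at 5.55 and 4.83, and Dcn at 0 and 0.00333. The part of these RNAs and markers in the results below was not tested. In bulk RNA, fewer cells that express a gene and less RNA of it per cell cannot be told apart.

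Lif was the most abundant member in the controls of both, at a mean of 27.8 ± 1.14 FPKM in 4T1 and 28.6 ± 1.83 FPKM in EMT6 (SD, n = 3 libraries, as for all means below). In 4T1 controls Clcf1 (15.9 FPKM), Il6st (14.2), Socs3 (9.94) and Stat3 (7.48) followed, and no neighbours in that order overlapped. In EMT6 controls Stat3 came next at 16.6 FPKM, then Il6st, Socs3 and Clcf1, whose libraries overlapped from one to the next in that order. Osmr stood at 1.21 FPKM in 4T1 controls and at 9.39 FPKM in EMT6 controls. In both KO groups Il6st, not Lif, was the most abundant member. Levels of the 2 lines come from separate tables and are set side by side without a test.

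**Figure D1:**
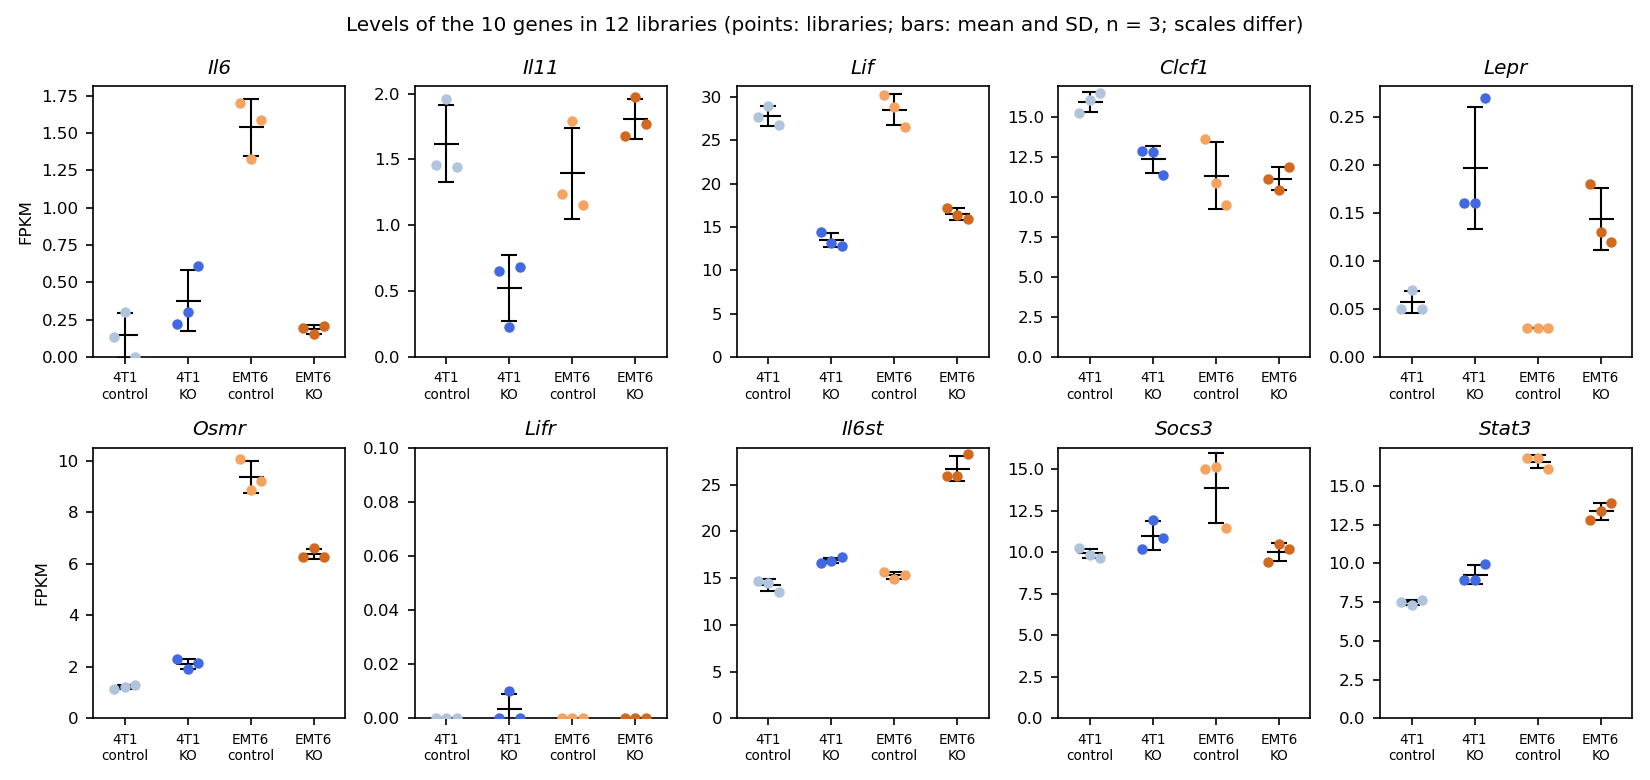
FPKM (vertical axis, linear from 0, a different scale in each panel) of the 10 genes in the 4 groups on the horizontal axis; points are libraries, and black bars are the mean and SD of 3 libraries. Lif is lower in KO in both lines, Lepr is higher in KO in both, and Il6 stands at 1.54 FPKM in EMT6 controls against 0.183 FPKM in EMT6 KO.

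Among the cytokines, Lif fell in KO in both lines. Lif, which keeps mouse embryonic stem cells undifferentiated and acts on many tissues, is ENSMUSG00000034394, which the tables place on chromosome 11 at 4207557 to 4222514 (plus strand). Gene positions here are those printed in the tables, whose build is not named. Its 4T1 control libraries held 27.7, 29.0 and 26.7 FPKM, and its 4T1 KO libraries 14.4, 13.2 and 12.8 FPKM. In EMT6 the values were 30.2, 28.8 and 26.6 FPKM in control and 17.2, 16.3 and 15.9 FPKM in KO. Every KO library lay below every control library in each line. The log2 change, KO over control, was -1.13 ± 0.06 (SE of the fit) in 4T1 and -0.79 ± 0.06 in EMT6. Lif in KO was thus 0.458 times and 0.579 times its control level.

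Il6, the founding cytokine of the family and an inducer of the acute-phase response, was scarce outside EMT6 controls. It is ENSMUSG00000025746 on chromosome 5 at 30218112 to 30224979 (plus strand). Its counts in EMT6 were 59, 59 and 74 in the controls and 9, 7 and 8 in KO, with no overlap, and it was tested there only because its controls were high. That is 1.70, 1.33 and 1.59 FPKM against 0.19, 0.15 and 0.21 FPKM, a log2 change of -3.07 ± 0.30, or 8.37-fold lower in KO. The pooled level was 3.71 CPM (95% exact Poisson interval 3.20 to 4.27) in EMT6 controls and 0.437 CPM (0.28 to 0.65) in EMT6 KO. In 4T1 the counts were 5, 11 and 0 in the controls and 9, 12 and 26 in KO. These 4T1 groups overlapped, and the log2 value of 1.27 ± 0.61 was not called by the rule used for all genes (adjusted p under 0.05). Single libraries moved this value both ways. Without 4T1 control library 2, which held the 11 counts, it was 2.35 and was called. It was 0.73 without control library 3, which held 0 counts, and 0.74 without KO library 3, which held 26. Neither of these was called.

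Il11 and Clcf1 fell in 4T1 KO and were not called in EMT6. Il11, a cytokine of bone and stroma that also uses gp130, is ENSMUSG00000004371 on chromosome 7 at 4775372 to 4785858 (minus strand). Its 4T1 controls held 1.46, 1.96 and 1.44 FPKM and its 4T1 KO libraries 0.65, 0.23 and 0.68 FPKM, without overlap (log2 change -1.69 ± 0.30). These values rest on 41 to 61 counts per control library and 8 to 25 per KO library. In EMT6 the controls were at 1.24, 1.79 and 1.15 FPKM and the KO libraries at 1.68, 1.97 and 1.77 FPKM, which overlapped (log2 0.37 ± 0.22). Leaving out EMT6 control library 2, the highest control, moved that value to 0.61, past the threshold. The Il11 value of EMT6 minus that of 4T1 was 2.04 ± 0.39 on the log2 scale.

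Clcf1, which signals through the ciliary neurotrophic factor receptor, is ENSMUSG00000040663 on chromosome 19 at 4264292 to 4273544 (plus strand). It went from 15.3, 16.1 and 16.5 FPKM in 4T1 controls to 12.9, 12.8 and 11.4 FPKM in 4T1 KO, which do not overlap (log2 change -0.44 ± 0.06). In EMT6 the controls were at 13.6, 10.9 and 9.52 FPKM and spanned the KO libraries at 11.1, 10.5 and 11.9 FPKM (log2 -0.02 ± 0.11). That value is 0.13 without EMT6 control library 1, the highest. The tables also list Gm45928 over 9134 bases of Clcf1 on the same strand. It held 0 counts in 4T1 and at most 2 in EMT6, and no source used here says how reads shared by overlapping genes were counted.

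The starts of these cytokine genes are shown because their transcripts changed, and that of Socs3 because STAT3 is known to induce it. RefSeq sequence upstream of annotated starts (build GRCm38.p6) was found for 9 of the 10 members, in 12 windows of 250 bases, and not for Clcf1. Each window was searched on both strands for a STAT motif (TTCNNNGAA), an AP-1 motif (TGANTCA) and an NF-kappaB motif (GGANTTTCC). The windows with a match were those of Il6, Lif, Socs3 and the downstream start of Il11. They are printed 5′ to 3′ on the gene's strand up to the first exon base in GENCODE M21, with matches in capitals. Their positions are those of GRCm38.p6 and are not to be set against the positions above. The window of Il6 is chr5:30012864-30013113 (plus strand), that of Lif is chr11:4257318-4257556 (plus strand), that of Il11 is chr7:4778142-4778391 (minus strand) and that of Socs3 is chr11:117969452-117969616 (minus strand).
Il6: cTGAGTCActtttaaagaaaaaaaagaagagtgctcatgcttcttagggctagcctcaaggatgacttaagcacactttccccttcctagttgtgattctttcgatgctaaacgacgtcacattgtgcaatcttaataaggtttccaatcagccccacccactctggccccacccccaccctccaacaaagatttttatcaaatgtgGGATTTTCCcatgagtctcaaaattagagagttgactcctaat
Lif: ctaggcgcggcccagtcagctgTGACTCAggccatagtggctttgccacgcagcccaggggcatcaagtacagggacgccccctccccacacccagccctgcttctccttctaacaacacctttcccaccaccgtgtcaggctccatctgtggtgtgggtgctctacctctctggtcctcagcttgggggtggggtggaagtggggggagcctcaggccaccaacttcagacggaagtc
Il11: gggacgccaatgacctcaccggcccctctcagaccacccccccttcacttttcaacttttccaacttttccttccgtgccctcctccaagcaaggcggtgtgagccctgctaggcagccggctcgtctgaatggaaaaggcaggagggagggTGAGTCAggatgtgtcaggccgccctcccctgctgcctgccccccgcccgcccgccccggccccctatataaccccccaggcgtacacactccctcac
Socs3: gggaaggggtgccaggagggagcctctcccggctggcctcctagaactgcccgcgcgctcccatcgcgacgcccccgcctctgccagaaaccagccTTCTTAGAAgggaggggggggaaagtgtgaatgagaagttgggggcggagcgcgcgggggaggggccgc
Il6 held an AP-1 match 249 to 243 bases and an NF-kappaB match 43 to 35 bases before its start. Lif held an AP-1 match 228 to 222 bases before its start, and the downstream start of Il11 held another at 98 to 92 bases. The STAT match of Socs3 lay 154 to 146 bases before the RefSeq start used. In GENCODE M21, Socs3 spans 117966079 to 117970047 on the minus strand. Its window and match thus lie inside that gene, downstream of its M21 start. Of 32817 windows of this length, 7.01% held the STAT motif, 6.75% the AP-1 motif and 1.07% the NF-kappaB motif. A match is a run of letters, and no binding was measured here.

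Among the receptors, Il6st rose in KO in both lines and Osmr changed in opposite directions. Il6st (gp130), the shared signalling subunit, is ENSMUSG00000021756 on chromosome 13 at 112600604 to 112646620 (plus strand). In EMT6 it went from 15.6, 14.9 and 15.4 FPKM in controls to 25.9, 25.9 and 28.2 FPKM in KO (log2 change 0.80 ± 0.05). In 4T1 it went from 14.7, 14.4 and 13.5 FPKM to 16.6, 16.8 and 17.2 FPKM (log2 change 0.17 ± 0.05). KO libraries lay above controls in each line, and the change in EMT6 exceeded that in 4T1 by 0.61 ± 0.07 on the log2 scale.

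Osmr, which completes the oncostatin M receptor, is ENSMUSG00000022146 on chromosome 15 at 6843058 to 6904450 (minus strand). In 4T1 the controls were at 1.12, 1.22 and 1.30 FPKM and the KO libraries at 2.31, 1.9 and 2.13 FPKM (log2 change 0.73 ± 0.10). In EMT6 the controls were at 10.1, 8.86 and 9.23 FPKM and the KO libraries at 6.27, 6.61 and 6.27 FPKM (log2 change -0.55 ± 0.06). All 4 groups were apart from each other, so that the 2 lines stood nearer to each other in KO than in control. The EMT6 change minus the 4T1 change was -1.30 ± 0.11.

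Lepr, the leptin receptor, rose in KO in both lines from very low levels. It is ENSMUSG00000057722 on chromosome 4 at 101574601 to 101672549 (plus strand). Its counts were 6, 7 and 5 in 4T1 controls and 19, 19 and 33 in 4T1 KO. In EMT6 they were 3, 4 and 4 in controls and 24, 18 and 13 in KO. Neither pair of groups overlapped, and no control library reached the level that the low-count filter asks for, so Lepr was tested only because its KO libraries were high. The pooled level rose from 0.401 CPM (95% exact Poisson interval 0.238 to 0.635) to 1.39 CPM (1.09 to 1.76) in 4T1 and from 0.212 CPM (0.106 to 0.38) to 1.00 CPM (0.755 to 1.30) in EMT6. The log2 changes were 1.69 ± 0.41 and 2.2 ± 0.46, and they differed by 0.48 ± 0.64. Even in KO the mean was at most 0.197 FPKM, while Il6st stood at 16.9 FPKM or more. Lep, which encodes the hormone leptin, had 0 counts in all 12 libraries.

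Lifr, the receptor through which LIF acts, was at or near 0 throughout. Of 12 libraries, 1 of 4T1 KO and 1 of EMT6 control held a single count and the others none. With 0 counts among 44832464, the 4T1 controls allow up to 0.0823 CPM, the upper end of an exact Poisson interval at 95%. Lifr (ENSMUSG00000054263, chromosome 15 at 7120095 to 7226970) did not pass the low-count filter in either line and was not tested. Lif thus had the highest mean of the member cytokines in every group, while the transcript of its receptor was not detectable beyond these counts. In 4T1 KO, though, Lif (13.5 FPKM) overlapped Clcf1 (12.4 FPKM).

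Stat3, the transcription factor of the pathway, rose in 4T1 KO and fell in EMT6 KO, while Socs3 fell in EMT6 KO. Stat3 (ENSMUSG00000004040, chromosome 11 at 100775924 to 100830366, minus strand) went from 7.49, 7.32 and 7.64 FPKM in 4T1 controls to 8.93, 8.90 and 9.97 FPKM in 4T1 KO (log2 change 0.23 ± 0.05). In EMT6 it went the other way, from 16.8, 16.8 and 16.1 FPKM to 12.8, 13.4 and 13.9 FPKM (log2 change -0.31 ± 0.06). The groups did not overlap in either line, and the EMT6 change minus the 4T1 change was -0.56 ± 0.08. In the tables Stat3 shares 72 bases with Stat5a, which lies on the other strand.

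Socs3 (ENSMUSG00000053113, chromosome 11 at 117856905 to 117860873, minus strand) held 10.3, 9.86 and 9.69 FPKM in 4T1 controls and 10.2, 11.9 and 10.9 FPKM in 4T1 KO, which overlapped (log2 0.07 ± 0.08, 95% interval -0.09 to 0.22). In EMT6 the controls were at 15.04, 15.2 and 11.5 FPKM and the KO libraries at 9.43, 10.5 and 10.2 FPKM (log2 change -0.46 ± 0.10). These did not overlap, with the lowest control closest to the KO libraries. In EMT6, then, Il6, Lif, Osmr, Stat3 and Socs3 were all lower in KO while Il6st and Lepr were higher. In 4T1, Lif, Il11 and Clcf1 were lower and Lepr, Osmr, Stat3 and Il6st higher.

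**Figure D2:**
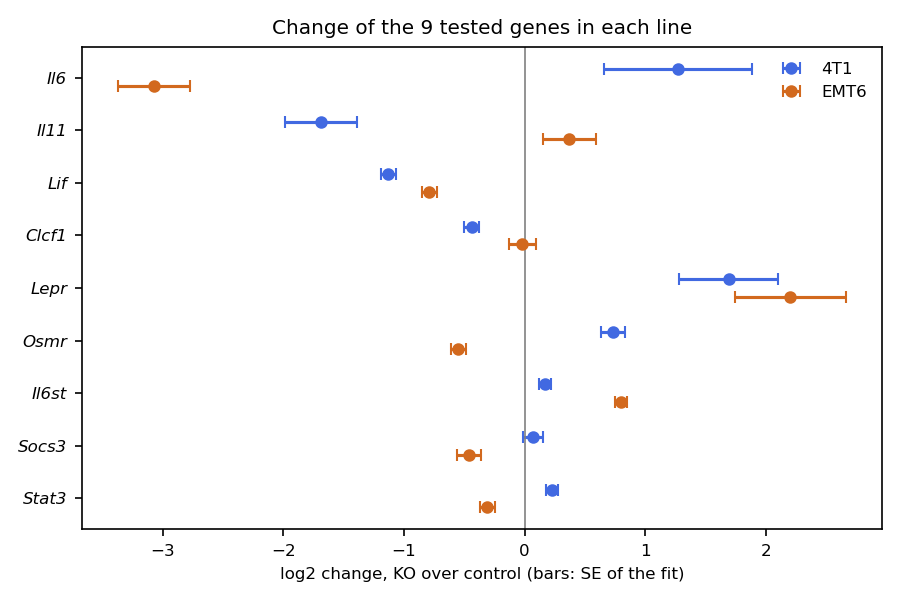
Log2 change of KO over control (horizontal axis; bars are the SE of the fit) for the 9 tested genes in 4T1 (blue) and EMT6 (orange). Osmr and Stat3 lie on opposite sides of 0 and were called in both lines, while Lif, Lepr and Il6st lie on the same side in both. Il6, Il11 and Socs3 also lie on opposite sides, but each was called in 1 line only.

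Across the 9 members that passed the low-count filter in each line, edgeR's quasi-likelihood fit of the whole table called 4 higher and 3 lower in 4T1 KO. In EMT6 KO it called 2 higher and 5 lower. Large shares of all genes were called: 57.0% of 13313 tested genes in 4T1 (28.0% higher and 29.0% lower) and 56.0% of 12890 in EMT6 (27.9% higher and 28.2% lower). The split in 4T1 depends on scaling, with 49.1% of calls higher under the scaling used and 61.2% when libraries are scaled by their totals only. No member changed its call or direction under that scaling. The difference in KO effect between the lines was called for 8 of 9 members, Lepr being the exception, against 59.9% of 12006 genes. These counts describe chosen genes, so nothing is read from them.

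Of 14 further cytokines and receptors that use gp130 or its relatives, 6 were tested in 4T1 and 5 in EMT6, and the others were too low to test. The alpha receptors were present at low levels. Il6ra, which binds IL-6, had means of 1.95 and 2.32 FPKM in 4T1 control and KO and of 5.75 and 5.17 FPKM in EMT6. Il11ra1, which binds IL-11, had means of 0.523 and 0.513 FPKM in 4T1 and of 1.92 and 1.71 FPKM in EMT6. Reads of Il11ra1 may be shared with its near-identical copy Il11ra2, which is listed at 0 counts. Neither alpha receptor was called in either line (edgeR adjusted p from 0.126 to 0.715), though Il6ra in 4T1 was called at 0.24 without KO library 1 and at 0.25 with scaling by totals only, and in EMT6 at -0.23 without control library 3. The cytokines Ctf1 (cardiotrophin 1) and Cntf (ciliary neurotrophic factor) were not called either, at means of 4.41 and 3.99 FPKM and of 0.917 and 1.04 FPKM in 4T1 control and KO. In EMT6 their means were 6.04 and 6.68 FPKM and 0.62 and 0.79 FPKM. Il27ra, the receptor of interleukin 27, had 13 to 16 counts in 4T1 controls and 8 to 11 in 4T1 KO, and was not called. Osm, Cntfr and Il31ra had at most 4 counts in any library, and Il31 and Il11ra2 had none.

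Leprot and its relative Leprotl1 changed in EMT6. Leprot, which starts upstream of Lepr on the same strand and whose protein acts on surface levels of receptors, rose there from a mean of 24.4 to 32.7 FPKM (log2 change 0.42 ± 0.07, edgeR adjusted p = 5.83e-05). It stood at 20.3 and 21.6 FPKM in 4T1 (log2 0.01 ± 0.07, not called). Leprotl1, which lies on another chromosome, fell in EMT6 by 0.55 ± 0.16 (edgeR adjusted p = 0.0257), a call lost without EMT6 KO library 1 (-0.57, edgeR adjusted p = 0.0553) and with the replicate number as a block (-0.53, edgeR adjusted p = 0.0689). In 4T1, 0 of these 2 tested genes were called by edgeR, with 0 at an unadjusted p under 0.05 and 0 by DESeq2. In the tables Leprot and Lepr do not overlap.

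Of 15 tested JAK, STAT and adaptor genes, 5 were called higher and 4 lower in 4T1 (median log2 0.08). In EMT6, 6 were called higher and 6 lower (median 0.10). Over all tested genes the medians were 0.00 in each line, and 57.0% were called in 4T1 and 56.0% in EMT6. Stat2, an interferon-response factor, rose in both lines, by 0.60 ± 0.08 in 4T1 (edgeR adjusted p = 1.23e-06) and by 1.06 ± 0.09 in EMT6 (edgeR adjusted p = 5.76e-08). The largest decrease of the list in 4T1 was that of Stat6, the factor of IL-4 signalling (-0.71 ± 0.05), followed by Jak3 (-0.44 ± 0.09) and Jak2 (-0.18 ± 0.06). Stat6 was called higher in EMT6 (0.37 ± 0.06). The Jak2 call was lost without 4T1 control library 1 (-0.15), control library 2 (-0.12) or KO library 2 (-0.16), and with scaling by totals only (-0.10). The kinase Tyk2 and the adaptor Gab2 rose in 4T1 by 0.48 ± 0.06 and 0.48 ± 0.07. In EMT6, Stat5a, Stat5b and the adaptor Gab1 fell by 0.63 ± 0.11, 0.46 ± 0.08 and 0.57 ± 0.09. Gab2 rose there by 0.44 ± 0.14, a call lost without control library 1 or 2 or KO library 1 or 2 (0.35 to 0.41).

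Of 15 genes that restrain JAK-STAT signalling, 3 were called higher and 4 lower in 4T1 (median -0.07). In EMT6, 4 were called higher and 8 lower (median -0.25). Against these stand 57.0% of all tested genes called in 4T1 and 56.0% in EMT6. Pias3, a protein that binds STAT3 and blocks it on DNA, rose in both lines, from 5.78, 5.22 and 5.79 FPKM to 9.23, 10.3 and 10.0 FPKM in 4T1 and from 5.92, 6.69 and 5.12 FPKM to 8.82, 8.81 and 9.42 FPKM in EMT6. Its log2 changes were 0.73 ± 0.08 (edgeR adjusted p = 1.27e-08) and 0.61 ± 0.10 (edgeR adjusted p = 4.65e-05), and they were not called different between the lines (-0.14, edgeR adjusted p = 0.322). Socs2, a relative of Socs3 that acts on growth hormone signalling, fell in EMT6 from 0.71, 0.73 and 1.29 FPKM to 0.23, 0.25 and 0.20 FPKM (log2 change -2.00 ± 0.24). Its change was lower than in 4T1 by 1.89 on the log2 scale (-1.89, edgeR adjusted p = 1.17e-05). Socs1 and Socs5, other members of that family, rose in EMT6 by 0.64 ± 0.17 and 0.61 ± 0.07, and Socs6 fell by 0.47 ± 0.07. The phosphatase Ptpn6 (SHP-1) fell in EMT6 by 0.83 ± 0.09 and in 4T1 by 0.34 ± 0.10, the latter not called without KO library 3 (-0.23). In 4T1 the adaptor Sh2b3 fell by 0.50 ± 0.05 and the phosphatase Ptpn2 by 0.48 ± 0.06, while Pias1 rose by 0.42 ± 0.06. Socs7 rose there by 0.16 ± 0.06, a call lost without control library 3, KO library 2 or KO library 3 (0.10 to 0.15), by DESeq2 (0.17), with all 4 groups in 1 fit (0.16) and with no low-count filter (0.13).

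In 4T1, 9 of 22 tested genes known as STAT3 targets were called lower and 6 higher (median -0.05). In EMT6, 11 of 21 were called lower and 6 higher (median -0.14). Of all tested genes, edgeR called 29.0% lower and 28.0% higher in 4T1, and 28.2% lower and 27.9% higher in EMT6. Lcn2 (lipocalin 2), an iron-siderophore binding protein, went in EMT6 from 73.4, 68.4 and 93.4 FPKM to 0.16, 0.19 and 0.24 FPKM (log2 change -8.63 ± 0.19, edgeR adjusted p = 7.09e-11), with 8 to 10 counts per KO library. The acute-phase gene Saa3 fell there from 34, 28 and 26 counts to 2, 4 and 2 (log2 change -3.50 ± 0.47). Lcn2 and Saa3 passed the low-count filter in EMT6 through their control libraries, where they are high, with 1 and 0 KO libraries at the level it asks for. The p-values of Lcn2 are therefore a description only. Cebpd, a transcription factor of the acute-phase response, fell from 16.4, 17.0 and 13.6 FPKM to 3.29, 3.66 and 2.85 FPKM (log2 change -2.25 ± 0.11, edgeR adjusted p = 1.73e-10). In 4T1, Lcn2 stood at means of 18.1 and 19.9 FPKM, and the differences between the lines were called for Lcn2 (-8.71, edgeR adjusted p = 7.18e-16), Saa3 (-3.50) and Cebpd (-2.65, edgeR adjusted p = 4.75e-10).

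The protease inhibitor Timp1 rose in EMT6 by 1.37 ± 0.07, from 68.7, 76.6 and 63.5 FPKM to 175.2, 184.4 and 178.3 FPKM, and the adhesion molecule Icam1 rose in 4T1 by 1.93 ± 0.17, from 0.53, 0.78 and 0.49 FPKM to 2.38, 2.66 and 2.23 FPKM. In EMT6, Icam1 had 0 to 1 counts per control library and 6 to 9 per KO library and was not tested. The kinase Pim1 rose in both lines, by 0.36 ± 0.06 and 0.45 ± 0.11. In 4T1 the prostaglandin synthase Ptgs2 and the growth regulator Myc fell by 0.68 ± 0.04 and 0.57 ± 0.05, and in EMT6 by 0.80 ± 0.08 and 0.62 ± 0.07. Cebpd rose in 4T1 by 0.38 ± 0.11, a call lost without KO library 3 (0.25). Fos, an AP-1 subunit, fell in 4T1 by 0.51 ± 0.21 and rose in EMT6 by 1.02 ± 0.25. The first call was lost without control library 1 (-0.41), KO library 2 (-0.50) or KO library 3 (-0.43), by DESeq2 (-0.51), with all 4 groups in 1 fit (-0.51) and with scaling by totals only (-0.43), and the second without EMT6 control library 3 (1.10).

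**Figure D3:**
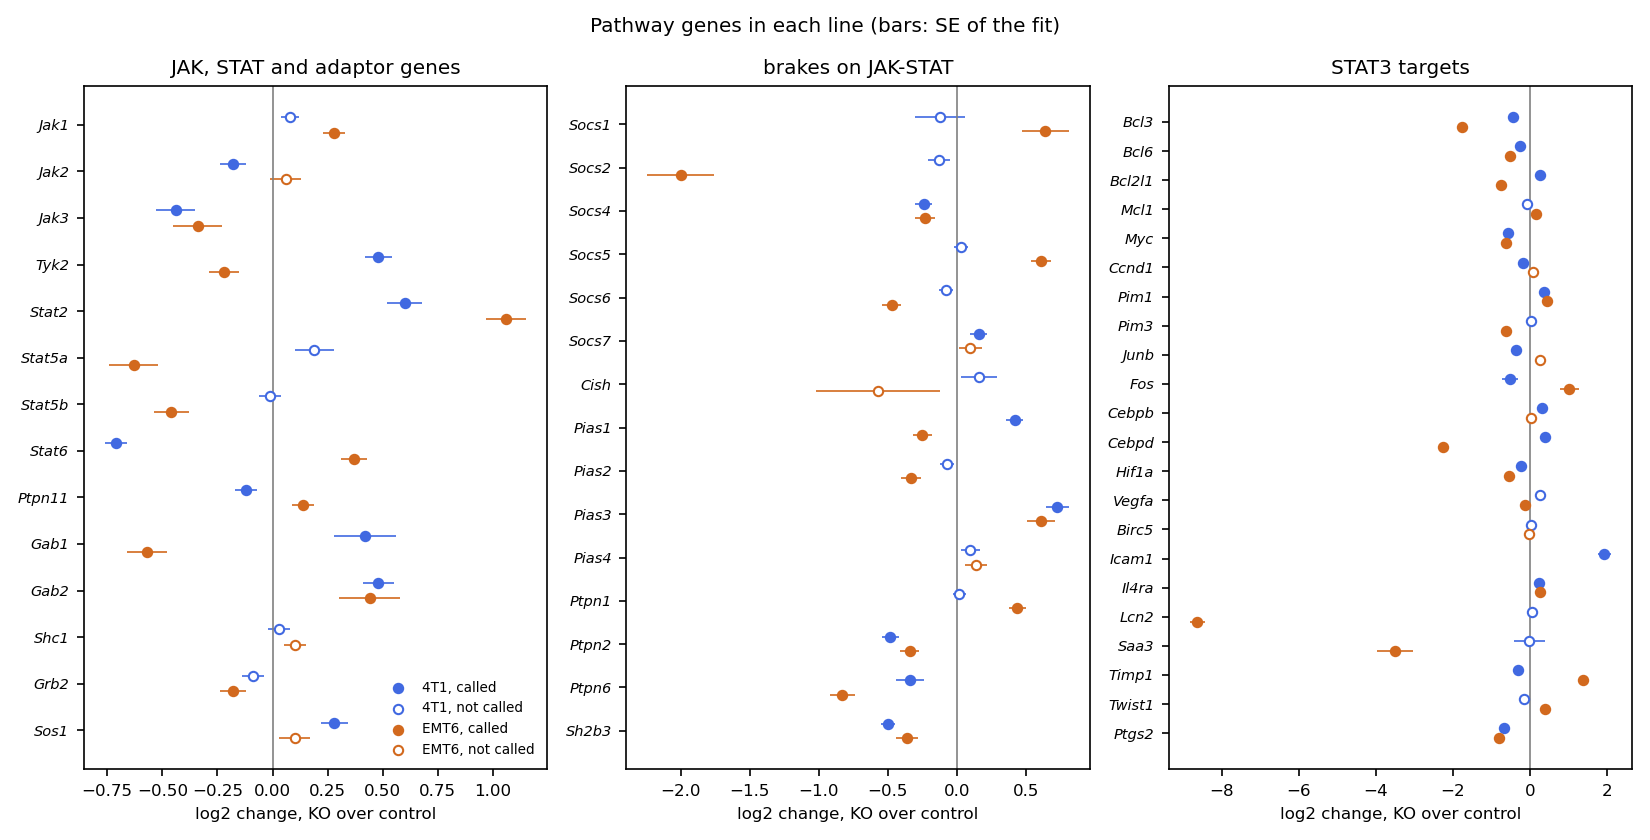
Log2 change of KO over control (horizontal axes, which differ in scale; bars are the SE of the fit) for tested JAK, STAT and adaptor genes, the genes that restrain the pathway and the STAT3 targets. Blue is 4T1 and orange EMT6, and filled points are called by edgeR; Lcn2 in EMT6 lies at -8.63, far from every other point.

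Of 10 proteins controlling Il6 mRNA stability, the KO effect was called different between the lines for 5, against 59.9% of 12006 genes. In 4T1, 7 of the 10 were called lower and 0 higher by edgeR (7 and 0 at an unadjusted p under 0.05, and 7 and 0 by DESeq2), with a median of -0.30. In EMT6, 5 were called higher and 3 lower, with a median of 0.20. Of all tested genes, edgeR called 29.0% lower and 28.0% higher in 4T1, and 28.2% lower and 27.9% higher in EMT6. Zc3h12a (Regnase-1), the nuclease that cuts Il6 mRNA, fell in EMT6 from 20.93, 21.01 and 15.56 FPKM to 7.87, 7.36 and 7.80 FPKM (log2 change -1.32 ± 0.11, edgeR adjusted p = 3.36e-07). The difference from its 4T1 change was -1.41 (edgeR adjusted p = 1.01e-08). Arid5a, which protects Il6 mRNA, fell in both lines, by 0.46 ± 0.06 in 4T1 and by 0.89 ± 0.18 in EMT6, as did the RNA-binding protein Zfp36l1, by 0.39 ± 0.06 and 0.39 ± 0.09. Rc3h1 and Rc3h2 (Roquin proteins) rose in EMT6 by 0.70 ± 0.06 and 0.37 ± 0.06. Hnrnpd (AUF1) fell in 4T1 by 0.43 ± 0.05 and rose in EMT6 by 0.34 ± 0.06.

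The genes whose pattern over the 12 libraries was closest to that of a member were found by the root mean square difference of gene-centred log2 CPM, among up to 9986 genes. For Osmr they were Suox (difference 0.159) and Pla1a (0.171). Suox, sulfite oxidase, had means of 2.87 and 4.83 FPKM in 4T1 control and KO and of 22.2 and 12.9 FPKM in EMT6. For Il11 the closest were Acp5 (0.357) and Nt5dc1 (0.361), and for Lepr Cavin2 (0.344) and Adamts1 (0.361). Cavin2, a caveola protein, had means of 22.6 and 58.7 FPKM in 4T1 control and KO and of 20.7 and 42.2 FPKM in EMT6. For Il6 the closest genes were Pfkfb3 (0.831) and Casp4 (0.867). These differences are not scaled to a gene's range, which was widest for Il6 (5.17 in log2 CPM). Only genes at a mean of at least 1 FPKM were compared. A prior count of 2 also shrinks differences of low-count members such as Il6 and Lepr. The comparison used the same libraries for both genes and is a description only.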

How the data were processed

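Messenger RNA was sequenced from 4T1 and EMT6 cells, control and Nedd4 KO, with 3 libraries per group. The authors deposited raw read counts and FPKM per gene in 1 table for each line. Per the submitters' processing notes, cutadapt 1.9.1, HISAT2 2.2.1, HTSeq 0.6.1, DESeq2 and GRCm38 were used, with roles and settings that no source used here gives. The deposited FPKM matched count, library total and exonic gene size within rounding in all 340146 values of each line. Gene coordinates are as the tables print them. For the 10 members 0 had the same start and end as in GENCODE M21, an annotation of GRCm38. The printed positions thus conflict with the build in the processing notes, and no build is named.

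The 2 lines were fitted separately, each over its whole table of counts, with edgeR 4.0.16 in R 4.3.3 (filterByExpr, TMM scaling, quasi-likelihood test, robust dispersion). P-values are 2-sided and adjusted by Benjamini-Hochberg over all tested genes of a fit, and a gene is called at an adjusted p under 0.05. The difference between the lines is the interaction of line and KO in a fit of all 12 libraries. The procedure was tested on simulated data. Libraries of a group differed by more than sampling noise (chi-square per degree of freedom 2.00 to 7.94).

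The members, the 6 pathway lists (81 genes) and the tests were chosen with earlier results of these data known. Named genes are the members, Nedd4, per list and line up to 3 called genes with the highest and 3 with the lowest log2 change, all tested genes of the gp130-family and leptin lists, and the 2 genes closest in pattern to each of the 4 members with the widest range. Some genes of these lists are counted but not reported here. Marker lists covered mammary epithelium, leukocytes, endothelium, fibroblasts and adipocytes. The summed level of the endothelial markers was at most 0.59 FPKM and that of the adipocyte markers at most 0.09 FPKM in any library. Fibroblast markers summed to 4.88 to 5.82 FPKM in 4T1 libraries, and to 158 to 179 FPKM in EMT6 controls and 203 to 236 FPKM in EMT6 KO. In EMT6 most of that sum was Col1a1. Alternatives were DESeq2 1.42.0, DESeq2 size factors in edgeR, scaling by totals only, no low-count filter, a replicate block, all 4 groups in 1 fit, and leaving out each library.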

Additional observations from a re-analysis of the deposited data

Results flagged for a closer look

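Effects of the KO that differ between the lines are listed here as the EMT6 log2 change minus the 4T1 log2 change. For Osmr (-1.30) and Stat3 (-0.56), every KO library lay above every control in 4T1 and below every control in EMT6. These are members, so their difference is a description only, although the fit called it. The fit also called it for Il6 (-4.36, with few counts in 4T1), Il11 (2.04), Il6st (0.61), Socs3 (-0.55), Clcf1 (0.41) and Lif (0.32). Libraries of those members did not part in opposite directions. For the further genes listed next the interaction was called by edgeR, as it was for 59.9% of 12006 genes. Among other family genes, Leprot and its relative, it was -0.34 for Il6ra, 0.39 for Leprot and -0.51 for Leprotl1. Among JAK, STAT and adaptor genes, it was 0.22 for Jak2, -0.71 for Tyk2, 0.43 for Stat2, -0.84 for Stat5a, -0.48 for Stat5b, 1.05 for Stat6 and -1.01 for Gab1. Among genes that restrain the pathway, it was 0.74 for Socs1, -1.89 for Socs2, 0.56 for Socs5, -0.41 for Socs6, -0.69 for Pias1 and -0.51 for Ptpn6. Among STAT3 targets, it was 1.51 for Fos, -2.65 for Cebpd, -8.71 for Lcn2, -3.50 for Saa3 and 1.64 for Timp1. Among regulators of Il6 mRNA, it was -1.41 for Zc3h12a, 1.02 for Rc3h1, 0.28 for Rc3h2 and 0.75 for Hnrnpd. Of these further genes, Stat6, Fos, Timp1, Rc3h1 and Hnrnpd were called lower in 4T1 and higher in EMT6. Tyk2, Gab1, Pias1 and Cebpd were called higher in 4T1 and lower in EMT6. The call for Jak2 was lost under 11 of 17 alternatives, DESeq2 and the replicate block among them, and those for Leprotl1 and Il6ra under 5 of 17 each. Without 4T1 control library 2 or KO library 2, for example, Jak2 stood at 0.16 and 0.20. Without 4T1 KO library 3, Leprotl1 stood at -0.47 and Il6ra at -0.31.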

How the results depend on the processing

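Counts of called genes, members and pathway genes stayed within 1.5 times their value under every alternative run. Leaving out 1 library gave 6853 to 7293 called genes in 4T1, 6242 to 7040 in EMT6 and 6818 to 7211 for the difference between the lines. It gave 7 to 8 called members in each line, and 34 to 41 called pathway genes in 4T1 and 42 to 50 in EMT6. Same-numbered control and KO libraries did not deviate together (correlations -0.13 to 0.009, and 0 of 6 control libraries correlated best with their own number), so the numbers were not taken as pairs. With the replicate block 7676 genes were called in 4T1 and 6830 in EMT6, with 7 members in each line. Of 1152 log2 values of named genes within a line, 37 lost and 9 gained a call, and 10 changed sign, all of them for genes that were not called. Leprot in 4T1 became -0.02 with no low-count filter, -0.01 and -0.04 without control library 1 or 3 and -0.00 without KO library 3, with 0.07 without control library 2 at the other end. Leprotl1 in 4T1 became 0.02 with scaling by totals only. Cntf in 4T1 became -0.08 without control library 1 and -0.30 without KO library 1, with 0.35 without control library 2 at the other end. Clcf1 in EMT6 became 0.02 with no low-count filter, 0.13 without control library 1 and 0.02 without KO library 2. Il6 in 4T1 was also called with no low-count filter (1.24). Of 612 values of the difference between the lines, 21 lost their call and 0 changed sign. Depth limits Il6, Il11, Lepr and Lifr most, and 3 libraries per group limit every test.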
